A study of Rattus norvegicus with 36 samples.

Results

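Collagens are the main structural proteins of the lung's extracellular matrix. Each molecule holds a triple helix of α chains, and each chain contains stretches of a repeat in which glycine is followed by a pair of other residues. The fibrillar collagens (types I, II, III, V, XI, XXIV and XXVII) assemble into the fibers that give tissue its tensile strength and that accumulate in scars. Type IV collagen forms the sheet-like network of basement membranes, including the membrane shared by alveolar epithelium and capillary endothelium. The remaining types decorate fibrils, form beaded filaments, anchor epithelium or span the cell membrane. Silica inhalation is a classic cause of fibrotic lung disease, in which fibroblasts deposit fibrillar collagen in nodules.

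The collagen genes were taken as all array probes that are not controls and whose gene name is Col followed by a number, the letter a and a number. This gave 80 of 45598 probes and 44 of 25597 gene names. Of the 44 genes, 11 were fibrillar, 6 encoded type IV chains and 27 belonged to other types. A gene was tested when at least 6 of the 36 arrays gave it a signal above the 95th percentile of their negative controls, which held for 43 collagen genes (11 fibrillar, 6 type IV and 26 other) of 23721 named genes. Col28a1, encoding a chain of the von Willebrand factor domain type, did not reach this level and was not tested.

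The samples were accessory lung lobes of female Sprague Dawley rats that were 13 weeks old at treatment. Each rat received a single intratracheal instillation of either 10 mg DQ-12 quartz, a reference crystalline silica, in saline or the saline vehicle alone, and was killed after 1, 30 or 180 days (D1, D30 and D180). Each of the 6 groups held 6 rats, with 1 array per rat, so that DQ-12 was compared with vehicle of the same day. The instillation delivers a bolus to the airways and the lobe was measured whole, so that fewer cells of a type and less RNA per cell cannot be told apart in these values. Levels are log2 intensities after quantile normalization, and a change is the difference between group means of these levels. A gene passed the test at an adjusted p under 0.05 in limma with Benjamini-Hochberg adjustment over all 23721 genes.

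Of the 43 tested collagens, 28 were well above background on all 36 arrays (7 of 11 fibrillar, 6 of 6 type IV and 15 of 26 other), 14 on some arrays and Col25a1 on none. The lung was identifiable by its surfactant genes on the arrays, and between 51.2% and 75.5% of probes per array were well above background. The skeletal muscle markers stood apart on vehicle D180 replicate 5 and DQ-12 D1 replicate 5, with summed intensities of 11400 and 6830 against at most 1840 on the other arrays. The D1 arrays were unbalanced over scan dates, since all 6 DQ-12 arrays shared 1 scan date with only 1 vehicle array (vehicle D1 replicate 3). The D30 arrays were also unbalanced. There, 1 scan date held 4 vehicle arrays and 1 DQ-12 array, and another held 2 vehicle and 5 DQ-12 arrays. At D180 vehicle and DQ-12 arrays shared a slide only for vehicle replicate 4 and DQ-12 replicate 1.

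The repeat that defines a collagen chain can be read directly in some of the probes. In 6 of the 80 collagen probes (7.50%), each 60 bases long, a glycine codon (GGN) occurred at every ninth base along the whole probe, against 2 of 45518 other probes (0.00439%). Those 2 other probes were for Emid1 and Marco, which also encode collagen-like stretches. The 6 probes are shown because each lies wholly in the triple-helix repeat, and the capitals mark the glycine codons.
Col11a2: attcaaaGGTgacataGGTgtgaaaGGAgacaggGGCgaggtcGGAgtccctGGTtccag
Col20a1: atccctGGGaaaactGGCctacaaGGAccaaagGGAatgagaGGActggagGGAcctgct
Col23a1: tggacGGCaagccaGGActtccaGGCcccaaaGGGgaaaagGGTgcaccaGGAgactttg
Col4a5: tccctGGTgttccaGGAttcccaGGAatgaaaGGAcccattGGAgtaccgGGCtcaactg
Col4a6, 1 of its probes: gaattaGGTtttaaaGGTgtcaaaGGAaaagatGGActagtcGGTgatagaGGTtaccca
Col4a6, another probe: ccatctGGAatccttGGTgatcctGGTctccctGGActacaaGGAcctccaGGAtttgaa
Type IV chains contributed 3 of the 6, fibrillar chains 1 and the other chains 2. None of the 6 was the brightest probe of its gene, and the 43 probes used below held no such unbroken repeat. Probes with an interrupted repeat were not counted, so that a probe used below can still lie in the triple helix.

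Type IV genes lie in head-to-head pairs that share the DNA between their starts. Of these, 2 are shown, and the pair of Col4a5 and Col4a6 is not. A difference in change between partners was not tested. In the RefSeq GRCr8 assembly, Col4a1 (plus strand) and Col4a2 (minus strand) start 76 bases apart on chromosome 16, with a GC content of 78.9% between them. The capitals mark a GC box, GGGCGG, read on the opposite strand.
Col4a2 and Col4a1, chr16:84885521-84885596, plus strand: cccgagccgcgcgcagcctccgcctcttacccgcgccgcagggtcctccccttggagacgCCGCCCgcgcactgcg
Col4a3 (plus strand) and Col4a4 (minus strand) start 412 bases apart on chromosome 9, and the 250 bases before the start of Col4a3 have a GC content of 62.0% and hold 1 GC box.
Col4a4 and Col4a3, chr9:91323740-91323989, plus strand: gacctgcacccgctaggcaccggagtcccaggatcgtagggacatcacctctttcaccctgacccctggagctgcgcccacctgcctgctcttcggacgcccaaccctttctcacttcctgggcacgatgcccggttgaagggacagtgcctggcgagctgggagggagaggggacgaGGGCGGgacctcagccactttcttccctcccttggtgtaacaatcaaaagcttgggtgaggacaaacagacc
Neither stretch held CCAAT or TATAAA on either strand. In the 250 bases before the start, GGGCGG on either strand occurred in 20 of 38 collagen windows (52.6%) and in 30.5% of all 33469 windows, CCAAT in 31.6% and 34.0%, and TATAAA in 10.5% and 12.9%. These windows covered 35 of the 44 collagen genes, and Col12a1, Col14a1, Col1a1, Col22a1, Col25a1, Col2a1, Col3a1, Col6a2 and Col9a3 had none.

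In DQ-12 rats the collagens were mostly lower than in vehicle rats at D180, and the gene that rose most was Col9a2, not a fibrillar collagen. At D1, 6 of 43 collagens passed the test (14.0%), 1 higher and 5 lower, while 16.5% of all genes tested passed (7.69% higher and 8.76% lower). At D30, 3 of 43 passed (6.98%), 1 higher and 2 lower, against 4.06% of all genes (2.78% higher and 1.27% lower). At D180, 16 of 43 passed (37.2%), 2 higher and 14 lower, against 17.1% of all genes (7.94% higher and 9.11% lower). The median change of the 43 collagens was -0.09 at D1, -0.07 at D30 and -0.38 at D180, beside -0.01, -0.02 and -0.03 over all genes. In total 17 collagens passed at 1 day or more. Col4a4 and Col13a1 passed at all 3 days, lower each time, though both D30 calls were lost in several alternative settings. Of the 6 genes called at D1 and the 16 called at D180, 5 were shared, and of the 3 called at D30 all 3 were called at D180. The share of all genes that passed at 1 day or more, or at several days, was not counted.

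The batch limits these counts. At D1 DQ-12 and scan date largely cannot be told apart, and slide or scan date as a fixed block leaves 1 vehicle array (replicate 3). The slide block at D180 compares 1 array (vehicle replicate 4) with 1 (DQ-12 replicate 1). These fits hold too few arrays for calls to be counted. With the scan date block 14 passed at D180. When each day was fitted alone, 7 passed at D180. When arrays were scaled to their 75th percentile instead of quantile normalized, 10 collagens passed at D1 (2 higher and 8 lower), 3 at D30 and 19 at D180 (2 higher and 17 lower), while the share of higher genes among all calls went from 46.8% to 25.1% at D1, from 68.6% to 55.2% at D30 and from 46.6% to 36.0% at D180. At D30 the count was 5 without vehicle D30 replicate 3 or without vehicle D30 replicate 4 and 8 without DQ-12 D30 replicate 5.

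The members are described by class, and a difference between classes was not tested. Among the 11 fibrillar genes none passed at D1 or D30 (3 and 2 at an unadjusted p under 0.05 in limma) and 1, Col5a2, passed at D180. Of the 6 type IV genes, 2 passed at D1, 1 at D30 and 4 at D180, all of them lower, beside 8.76%, 1.27% and 9.11% of all genes lower at these days. Of the 26 other collagens, 4, 2 and 11 passed at D1, D30 and D180, beside 16.5%, 4.06% and 17.1% of all genes. The median change at D180 was -0.13 for the fibrillar, -0.55 for the type IV and -0.45 for the other collagens, and all 6 type IV genes had a negative change. With slide as a fixed block (1 against 1 array) these medians were -0.32 for type IV and -0.20 for the other collagens. With normexp background correction the median was -0.20 for the other collagens. The medians at D1 were -0.13, -0.05 and -0.08, and at D30 they were 0.00, -0.06 and -0.22, in the same order. The median level of each class varied between rats of a group with a pooled SD of 0.148, 0.136 and 0.139.

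**Figure D1:**
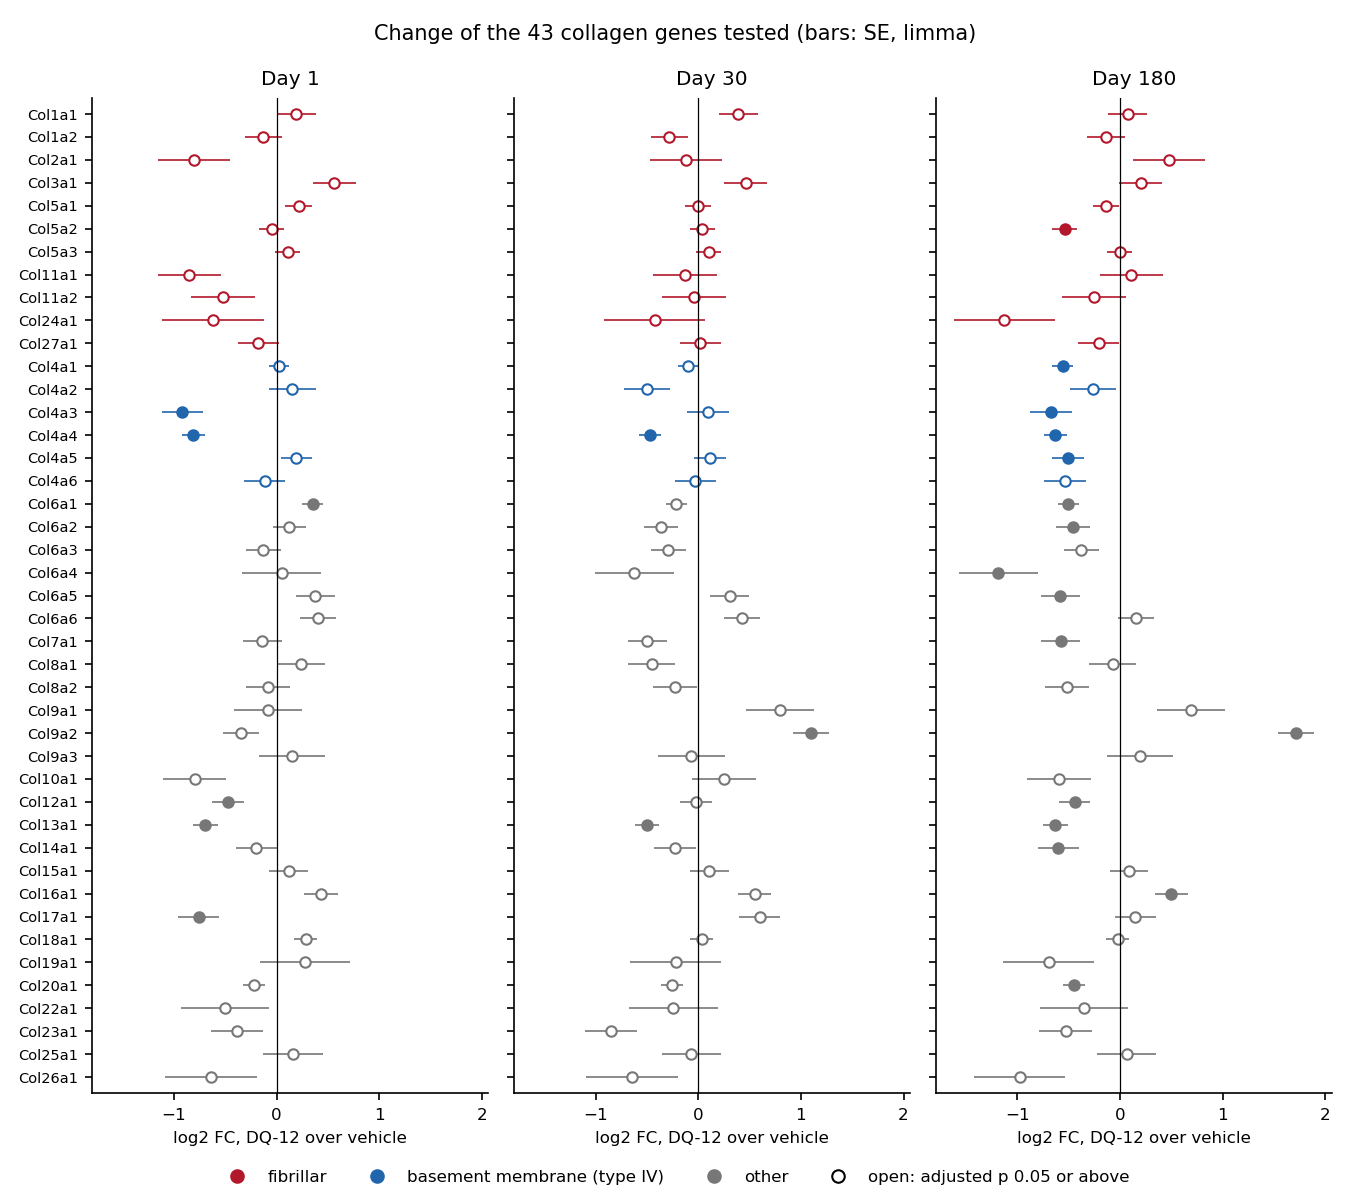
Change of each of the 43 tested collagen genes (DQ-12 minus vehicle, log2 scale, bars show SE, n = 6 rats per group) at D1, D30 and D180, by class; filled points passed an adjusted p under 0.05 and open points did not. At D180 all 6 type IV points lie below 0, while of the fibrillar genes only Col5a2 is filled.

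Among the type IV chains, Col4a4 was lower in DQ-12 rats at all 3 days, Col4a3 at D1 and D180, and Col4a1 and Col4a5 at D180. Col4a4 encodes the α4 chain, which with the α3 and α5 chains forms the network typical of the alveolar and glomerular basement membranes. Its level was between 13.16 and 13.49 (median 13.41) in vehicle rats at D1 and between 12.33 and 12.89 (median 12.52) in DQ-12 rats. All 6 DQ-12 rats lay below all vehicle rats, and the change was -0.81 (SE 0.111, adjusted p = 3.45e-06 in limma; exact permutation p = 0.00216, the smallest that 6 against 6 rats can give). At D30 its level was 13.08 to 13.61 (median 13.44) in vehicle and 12.65 to 13.27 (median 12.95) in DQ-12 rats, a change of -0.47 (SE 0.111, adjusted p = 0.0102 in limma) with 5 of 6 DQ-12 rats below all vehicle rats. At D180 it was 13.10 to 13.60 (median 13.38) against 12.43 to 12.88 (median 12.78), again without overlap, a change of -0.63 (SE 0.111, adjusted p = 8.31e-05 in limma). All 4 probes of Col4a4 were lower at each day, with changes between -1.27 and -0.31 at D1, -0.47 and -0.30 at D30 and -0.63 and -0.42 at D180. Within scan dates the change was -0.59 at D1 against the single vehicle array, -0.15 (1 DQ-12 array) and -0.51 at D30, and -0.54 and -0.93 (1 against 1 array) at D180. With slide as a fixed block it was -0.66 at D1 (1 vehicle array), -0.45 at D30 and -0.46 at D180 (1 against 1 array). The D30 change with this block did not pass (adjusted p = 0.0703 in limma). Nor did it with scan date as a fixed block (-0.38, adjusted p = 0.171) or with D30 fitted alone (-0.47, adjusted p = 0.0889). With the mean of all probes the D30 change was -0.38 (adjusted p = 0.0623).

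Col4a3, its head-to-head partner and the chain targeted in Goodpasture disease, differed at D1 and D180. At D1 the level was 7.51 to 8.28 (median 7.82) in vehicle and 6.58 to 7.44 (median 6.93) in DQ-12 rats. The groups did not overlap, and the change was -0.92 (SE 0.203, adjusted p = 0.00171 in limma; exact permutation p = 0.00216). Against the single vehicle array of the same scan date the D1 change of Col4a3 was -0.56. With slide as a fixed block (1 vehicle array) it was -0.70. At D30 the levels overlapped fully, with medians of 7.78 and 7.88 (change 0.10, adjusted p = 0.917 in limma), while Col4a4 on the other strand was lower. At D180 the vehicle rats spread from 6.77 to 8.44 (median 7.36) and the DQ-12 rats lay between 6.63 and 7.08 (median 6.70), a change of -0.67 (SE 0.203, adjusted p = 0.0187 in limma). That call was lost without vehicle D180 replicate 6 (change -0.47, adjusted p = 0.0773 in limma) and with scan date as a fixed block (-0.46, adjusted p = 0.067). With slide as a fixed block (1 against 1 array) the change was -0.31.

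Col4a1 and Col4a2 encode the α1 and α2 chains, the most widespread type IV chains, made by endothelium, fibroblasts and epithelium. Col4a1 was not detectably different at D1 (medians 13.34 in vehicle and 13.36 in DQ-12 rats) or D30 (13.50 and 13.31), with changes of 0.02 and -0.10 (adjusted p = 0.915 and 0.739 in limma). At D180 it was 12.87 to 13.38 (median 13.05) in vehicle and 12.41 to 12.76 (median 12.52) in DQ-12 rats. All 6 DQ-12 rats lay below all vehicle rats, and Col4a1 fell by 0.56 on the log2 scale (SE 0.101, adjusted p = 0.000116 in limma; exact permutation p = 0.00216). Within scan dates the change was -0.32 (3 against 3 arrays) and -0.53 (1 against 1), and with slide as a fixed block, also 1 against 1, it was -0.24. Its partner Col4a2 ranged from 8.63 to 9.58 (median 8.91) in vehicle and from 8.31 to 9.20 (median 8.67) after DQ-12 at D180, a change of -0.26 (SE 0.225, adjusted p = 0.504 in limma). Col4a5 and Col4a6, the X-linked pair, had changes of -0.51 and -0.53 at D180. The groups overlapped for both, at 9.47 to 10.47 against 9.12 to 9.48 for Col4a5 and 10.10 to 11.59 against 10.11 to 10.74 for Col4a6. Col4a5 passed (adjusted p = 0.0192 in limma), a call that was lost without vehicle D180 replicate 5 or DQ-12 D180 replicate 4 (adjusted p = 0.0525 to 0.0753), and Col4a6 did not (adjusted p = 0.0653, under 0.05 in 7 of 13 alternative settings and without vehicle D180 replicate 6, where it was 0.00663).

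**Figure D2:**
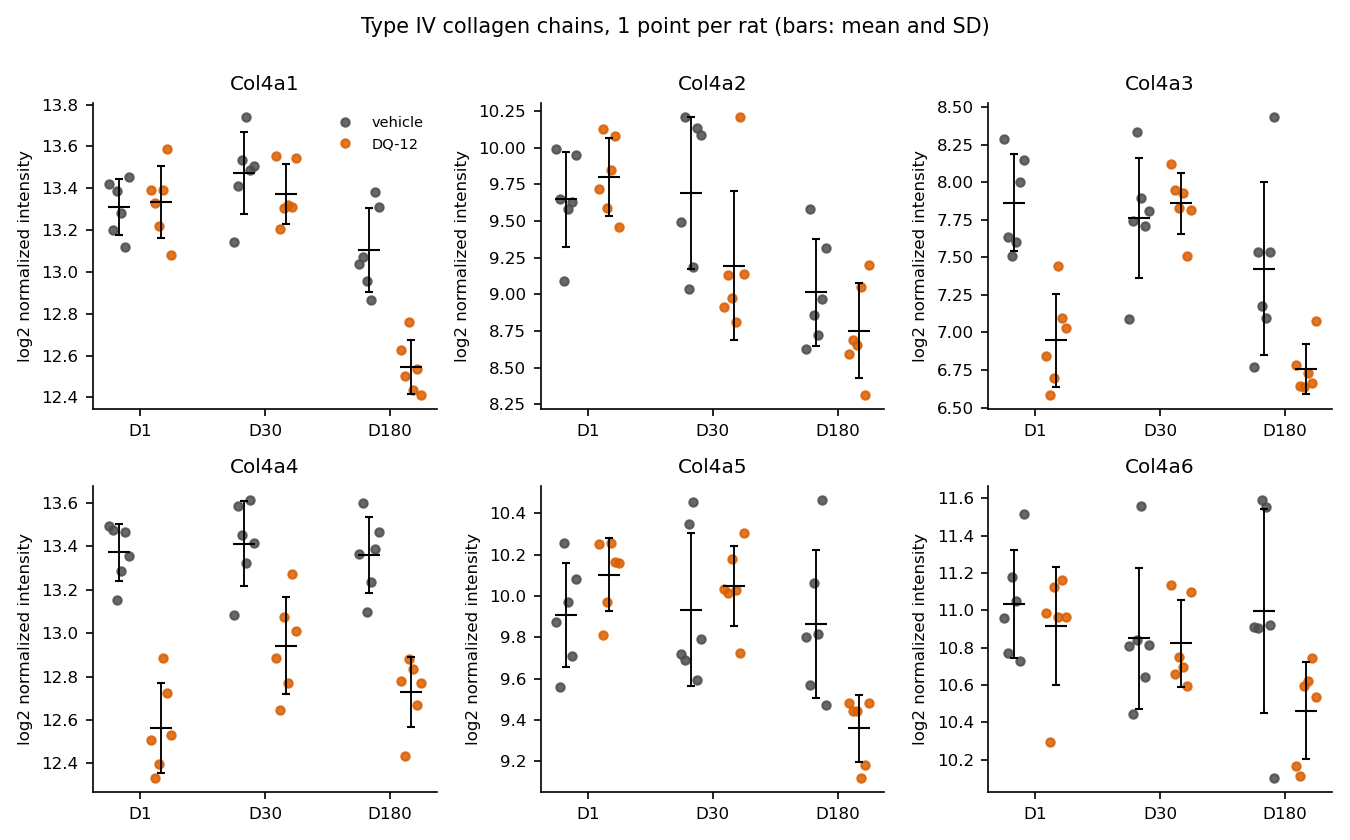
Log2 normalized intensity of the 6 type IV collagen genes in each rat (1 point per rat; bars show mean and SD, n = 6) for vehicle and DQ-12 at D1, D30 and D180. DQ-12 points of Col4a4 lie below vehicle at D1 and D180 without overlap, those of Col4a3 at D1, and those of Col4a1 at D180.

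Other basement membrane components and endothelial markers were counted beside these values, where 8.76%, 1.27% and 9.11% of all genes were lower at D1, D30 and D180. Of 14 other basement membrane components tested, 1 was lower at D1, none passed at D30 in limma (4 at an unadjusted p under 0.05) and 5 were lower at D180. The members with the smallest p at D180 were Pxdn, the peroxidase that cross-links type IV collagen (-0.54, adjusted p = 1.57e-05 in limma), Lama2, a laminin α chain (-0.71, adjusted p = 1.75e-05), and Lamb1, a laminin β chain (-0.57, adjusted p = 4.43e-05). Of 5 endothelial markers (Cdh5, Cldn5, Emcn, Pecam1 and Tie1), none passed at D1 in limma (2 at an unadjusted p under 0.05), 1 was lower at D30 and 4 at D180. Their summed intensity was 39000 to 47100 in vehicle and 31900 to 37500 in DQ-12 rats at D1, 49600 to 58700 and 36900 to 48100 at D30, and 38900 to 45500 and 22400 to 32700 at D180. The part of these markers in the type IV values was not tested.

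Of the fibrillar collagens only Col5a2 passed the test with DQ-12 in the whole lobe. Col1a1 and Col1a2 encode the 2 chains of type I collagen, the main component of scar fibers. At D180 Col1a1 was 11.58 to 12.64 (median 12.00) in vehicle and 11.89 to 12.39 (median 12.18) in DQ-12 rats, a change of 0.08 (SE 0.190, adjusted p = 0.854 in limma). The DQ-12 rats lay inside the vehicle range. At D1 its medians were 13.49 and 13.50 and at D30 12.99 and 13.29, with changes of 0.19 and 0.39 (adjusted p = 0.544 and 0.31). Within scan dates its D30 change was 0.44 (1 DQ-12 array) and 0.00 (5 DQ-12 arrays). Col1a2 changed by -0.13, -0.28 and -0.13 at D1, D30 and D180 (adjusted p = 0.697, 0.498 and 0.701 in limma), with ranges at D180 of 13.21 to 13.85 in vehicle and 13.09 to 13.89 in DQ-12 rats. A further, slightly dimmer Col1a1 probe gave 0.55, 0.32 and 0.47 at D1, D30 and D180, against 0.19, 0.39 and 0.08 for the probe used.

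Col3a1 encodes type III collagen, the early partner of type I in repair tissue. At D1 its level was 13.65 to 14.30 (median 13.94) in vehicle and 14.35 to 14.89 (median 14.49) in DQ-12 rats. Each of the 6 DQ-12 rats exceeded every vehicle rat, yet the change of 0.56 (SE 0.209) had an adjusted p of 0.061 in limma. This was under 0.05 in 6 of 13 alternative settings and without vehicle D1 replicate 3 (0.044). That replicate was the only vehicle array on the scan date of the DQ-12 arrays, and against it the change was 0.23. Groups that did not overlap occurred for 11.3% of all genes at D1, 2.39% at D30 and 7.34% at D180. The change of Col3a1 was 0.46 at D30 and 0.20 at D180 (adjusted p = 0.257 and 0.589), with vehicle rats at D180 spread from 11.77 to 13.54 and DQ-12 rats from 12.76 to 13.20. Within scan dates its D30 change was 0.48 (1 DQ-12 array) and 0.06 (5 DQ-12 arrays). Among the type V chains, which regulate fibril diameter, Col5a1 was 10.08 to 10.45 in vehicle and 9.72 to 10.42 in DQ-12 rats at D180, a change of -0.14 (adjusted p = 0.542 in limma). Col5a2 was 11.46 to 12.05 (median 11.60) in vehicle and 10.97 to 11.44 (median 11.09) after DQ-12 at D180. The groups did not overlap, and Col5a2 fell by 0.54 (SE 0.122, adjusted p = 0.00171 in limma; exact permutation p = 0.00216). That call was lost with scan date as a fixed block (-0.38, adjusted p = 0.0715 in limma). With slide as a fixed block (1 against 1 array) the change of Col5a2 was -0.41. It did not pass at D1 or D30, with changes of -0.04 and 0.04 (adjusted p = 0.858 and 0.954).

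**Figure D3:**
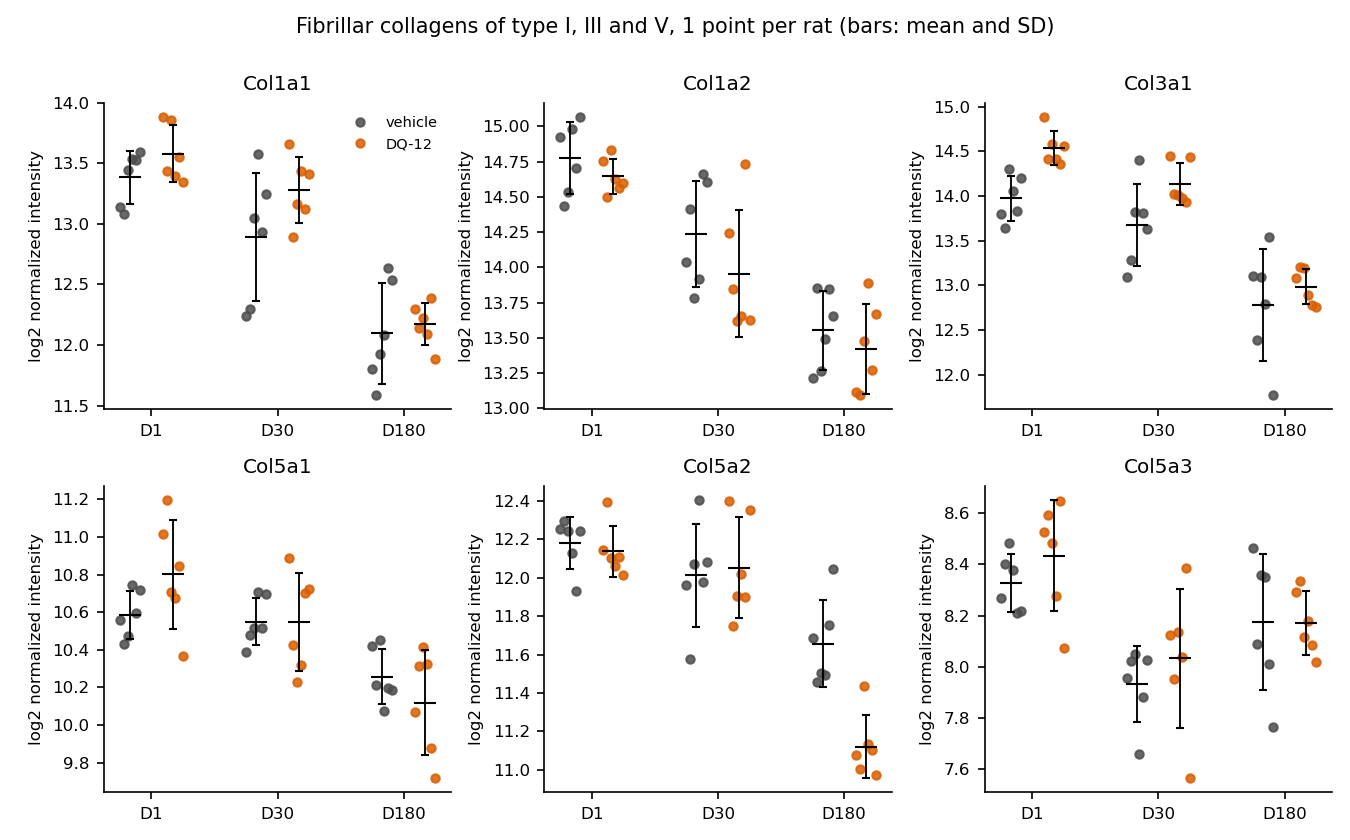
Log2 normalized intensity of 6 fibrillar collagen genes in each rat (1 point per rat; bars show mean and SD, n = 6) for vehicle and DQ-12 at D1, D30 and D180. Col5a2 at D180 is the only 1 of these that passed the test, while levels of Col1a1, Col1a2 and Col3a1 are lower at D180 than at D1 in both treatments.

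Fibroblast markers, which mark the main source of fibrillar collagen, were also measured. Of 8 (Inmt, Mfap4, Mfap5, Pdgfra, Pdgfrb, Pi16, Tcf21 and Thy1), 2 were lower at D1, 1 at D30 and 2 at D180, and none was higher, while 8.76%, 1.27% and 9.11% of all genes were lower and 7.69%, 2.78% and 7.94% higher. Their summed intensity was 33800 to 44500 in vehicle and 28000 to 35000 in DQ-12 rats at D1, 23800 to 44400 and 18800 to 35500 at D30, and 27900 to 37000 and 17400 to 27000 at D180. Of 5 smooth muscle markers 1 was higher at D1, 1 lower at D30 and 3 lower at D180, with sums at D180 of 6940 to 9380 and 4460 to 7080, and of 4 mesothelial markers 1, 2 and 2 were lower. Macrophage markers moved the other way, with 1, 2 and 3 of 5 higher at D1, D30 and D180, and sums of 5270 to 8830 in vehicle and 14100 to 22800 in DQ-12 rats at D180. The part of any of these in the collagen values was not tested.

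Col9a2, an α chain of type IX collagen that coats type II fibrils in cartilage, showed the largest change of all tested collagens at D30 and D180. Its level at D1 ranged from 8.06 to 9.10 (median 8.73) in vehicle and 8.10 to 8.59 (median 8.37) in DQ-12 rats, a change of -0.34 (adjusted p = 0.19 in limma). At D30 it was 8.31 to 8.82 (median 8.55) in vehicle and 9.22 to 9.95 (median 9.73) after DQ-12. At D180 it was 8.63 to 8.80 (median 8.72) and 9.76 to 11.05 (median 10.61). The groups did not overlap at either later day, and the rise was 1.10 (2.14-fold, SE 0.174, adjusted p = 0.000119 in limma) at D30 and 1.71 (3.28-fold, SE 0.174, adjusted p = 9.53e-09) at D180, each with an exact permutation p of 0.00216. Col9a2 was the only collagen with at least a 2-fold increase at an adjusted p under 0.05, a limit that 0.923% of all genes passed upward at D30 and 2.89% at D180. Within scan dates it was higher by 1.23 (1 DQ-12 array) and 1.05 at D30 and by 1.69 and 2.37 (1 against 1 array) at D180.

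The partners of Col9a2 in the type IX molecule did not pass the test. Col9a1 ranged from 2.83 to 4.48 in vehicle and 3.06 to 5.74 in DQ-12 rats at D180 (change 0.69, adjusted p = 0.163 in limma), and Col9a3 from 3.95 to 4.83 and 3.38 to 5.31 (change 0.20, adjusted p = 0.763). Both were dim, well above background on 15 and 26 of 36 arrays. Of 7 cartilage markers, 4 (Acan, Comp, Matn1 and Sox9) were tested and none passed at any day in limma (1, 0 and 1 at an unadjusted p under 0.05 at D1, D30 and D180). Their summed intensity was 361 to 937 in vehicle and 417 to 624 in DQ-12 rats at D180.

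Other fibril-associated collagens fell or rose less. Col16a1, which links fibrils to microfibrils, was 13.22 to 13.56 (median 13.45) in vehicle and 13.65 to 14.12 (median 14.08) after DQ-12 at D30, without overlap, a change of 0.55 (SE 0.164, adjusted p = 0.0503 in limma, under 0.05 in 6 of 13 alternative settings). At D180 it was 12.47 to 13.39 (median 12.97) and 13.03 to 14.22 (median 13.39), a rise of 0.50 (adjusted p = 0.0302 in limma; exact permutation p = 0.0736). This call was lost without any 1 of 5 arrays (vehicle D180 replicates 2, 5 and 6 and DQ-12 D180 replicates 2 and 4, adjusted p = 0.0719 to 0.128). It was also lost with scan date as a fixed block (0.34, adjusted p = 0.21 in limma). With slide as a fixed block (1 against 1 array) the change was -0.051. Col12a1 and Col14a1, both on the surface of type I fibrils, had changes of -0.44 and -0.60 at D180 (adjusted p = 0.046 and 0.0373), and Col20a1, a chain of the same group, -0.45 (adjusted p = 0.00249). Col20a1 was 10.40 to 11.11 in vehicle and 9.93 to 10.41 in DQ-12 rats, so that the groups overlapped only at their edges. Col12a1 also passed at D1, at 11.34 to 11.89 (median 11.50) in vehicle and 10.62 to 11.44 (median 11.23) in DQ-12 rats (-0.48, adjusted p = 0.0319 in limma). The Col12a1 calls were lost without any 1 of 4 arrays at D1 and 9 at D180, and the Col14a1 call without any 1 of 6. With slide as a fixed block (1 against 1 array) the D180 changes were -0.21 for Col12a1 and -0.045 for Col14a1. With scan date as a fixed block they were -0.45 and -0.43 and did not pass (adjusted p = 0.0765 and 0.166 in limma).

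Both membrane-spanning collagens named here were lower at D1. Col13a1, found at cell adhesion sites, was 12.88 to 13.17 (median 12.97) in vehicle and 11.95 to 12.70 (median 12.31) after DQ-12 at D1. The groups did not overlap, and the change was -0.69 (SE 0.120, adjusted p = 0.00011 in limma; exact permutation p = 0.00216). At D30 it was 12.85 to 13.35 against 12.36 to 12.95 (-0.50, adjusted p = 0.0119) and at D180 12.34 to 12.76 against 11.59 to 12.44 (-0.63, adjusted p = 0.000249), with 5 of 6 DQ-12 rats below all vehicle rats at both days. A dimmer probe of Col13a1 pointed the other way at D1 and D30. With the mean of all probes the gene passed at none of the 3 days (-0.32, -0.18 and -0.38, adjusted p = 0.156, 0.665 and 0.0795 in limma). The D30 call of Col13a1 was also lost with slide as a fixed block (-0.38, adjusted p = 0.0886). It was lost with scan date as a fixed block (-0.36, adjusted p = 0.206) or random block (-0.42, adjusted p = 0.0581). D30 fitted alone gave -0.50 (adjusted p = 0.058). Col17a1, a hemidesmosome component of epithelium, was 8.19 to 8.70 (median 8.43) in vehicle and 6.66 to 8.01 (median 7.87) after DQ-12 at D1, a change of -0.76 (SE 0.198, adjusted p = 0.00739 in limma) without overlap. At D30 its medians were 8.28 and 8.98 (change 0.60, adjusted p = 0.0853) and at D180 8.31 and 8.54 (0.15, adjusted p = 0.689). Col7a1, which forms the anchoring fibrils below epithelium, was 6.57 to 7.43 and 5.93 to 6.79 at D180, with a change of -0.58 (adjusted p = 0.0332) that was lost without any 1 of 6 arrays.

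Type VI collagen forms beaded filaments around cells. Of its 6 genes, 1 passed the test as higher at D1, beside 7.69% of all genes. At D180, 4 of the 6 passed as lower, beside 9.11% of all genes. Col6a1 was 10.97 to 11.40 (median 11.22) in vehicle and 11.32 to 11.77 (median 11.51) after DQ-12 at D1, a rise of 0.35 (SE 0.102, adjusted p = 0.0146 in limma; exact permutation p = 0.00866). At D30 the medians were 10.98 and 10.76 (change -0.21, adjusted p = 0.292). At D180 it was 10.39 to 10.72 (median 10.51) in vehicle and 9.80 to 10.16 (median 10.00) in DQ-12 rats. The groups did not overlap at D180, and Col6a1 fell by 0.50 (SE 0.102, adjusted p = 0.000479 in limma; exact permutation p = 0.00216). The direction of Col6a1 therefore differed between D1 and D180, although a dimmer probe gave -0.15 at D1, and with the mean of all probes neither call passed (0.10 and -0.48, adjusted p = 0.809 and 0.138 in limma). Col6a2 was 12.19 to 12.83 and 11.71 to 12.30 at D180 (-0.46, adjusted p = 0.0483), Col6a5 12.76 to 13.34 and 11.77 to 12.92 (-0.58, adjusted p = 0.0291), and both calls were lost without any 1 of 7 and 4 arrays. The Col6a5 call was also lost with scan date as a fixed block (-0.46, adjusted p = 0.163 in limma). Col6a3 was 12.84 to 13.99 and 12.54 to 13.75 at D180 (change -0.38, adjusted p = 0.137).

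Col6a4 had the largest decrease of the collagens that passed at D180 and was the only 1 lower by at least 2-fold (0.78% of all genes). It was 7.16 to 10.23 (median 7.65) in vehicle and 5.72 to 7.50 (median 6.92) in DQ-12 rats, a change of -1.18 (SE 0.383, adjusted p = 0.0285 in limma; exact permutation p = 0.0152). The highest value was that of vehicle D180 replicate 5, the rat with the high skeletal muscle markers, and without it the change was -0.74 (adjusted p = 0.111 in limma). The call was also lost without DQ-12 D180 replicate 1 (adjusted p = 0.0509) or replicate 5 (adjusted p = 0.091). Across the 16 genes called at D180, 7 kept the call when any single array of the 2 groups was left out (Col9a2, Col4a4, Col4a1, Col13a1, Col6a1, Col5a2 and Col20a1). For 9 of the 16 genes further probes existed, and all 15 of those probes had the same direction as the probe used. At D1 the further probes agreed in direction for 5 of 8.

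**Figure D4:**
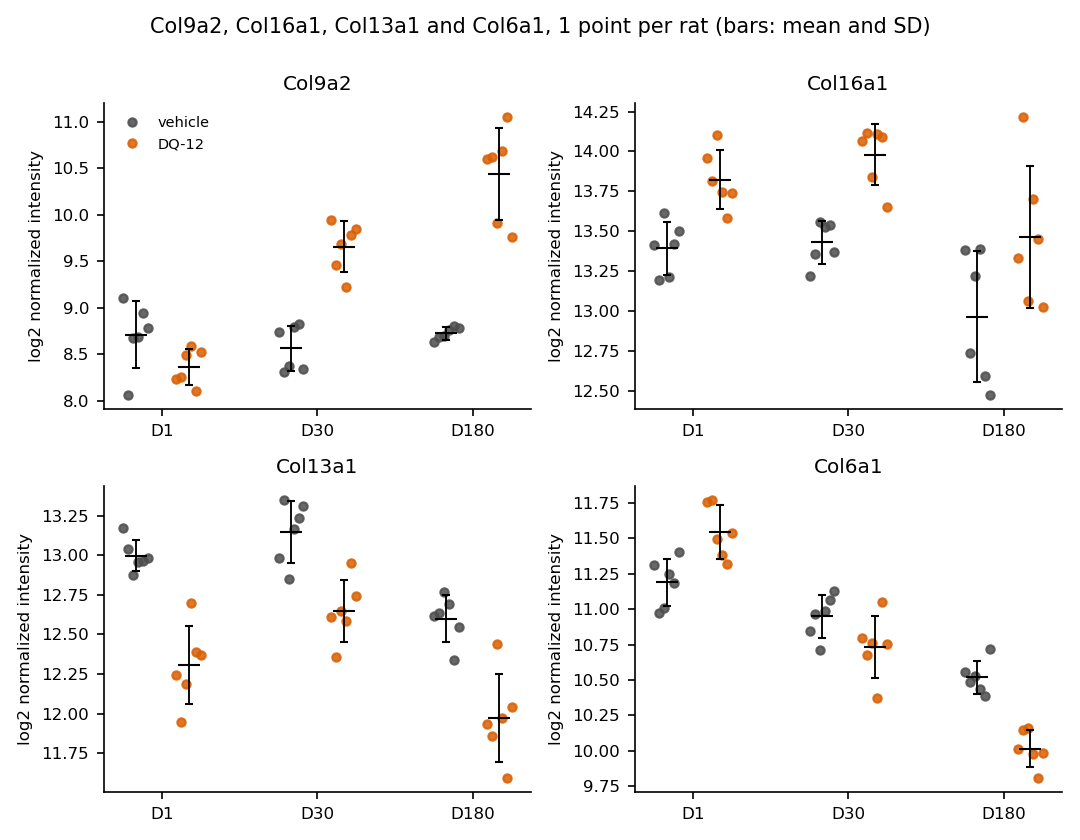
Log2 normalized intensity of Col9a2, Col16a1, Col13a1 and Col6a1 in each rat (1 point per rat; bars show mean and SD, n = 6) for vehicle and DQ-12 at D1, D30 and D180. Col9a2 in DQ-12 rats lies above vehicle at D30 and D180, Col13a1 lies lower at each day, and Col6a1 is higher at D1 and lower at D180.

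Ratios within a rat compared single members of the classes. Only the change of such a ratio between treatments can be read, since the levels of different probes are not on 1 scale, and 9 tests were made (3 ratios at 3 days). Col1a1 minus Col4a1 averaged -1.01 ± 0.302 (SD, n = 6) in vehicle and -0.37 ± 0.145 (SD, n = 6) in DQ-12 rats at D180. Each of the 6 DQ-12 rats exceeded every vehicle rat, a difference of 0.64 (exact permutation p = 0.00216, 0.00974 after Benjamini-Hochberg adjustment over the 9). At D30 the difference was 0.49 (exact permutation p = 0.0152, adjusted 0.0341) with 4 of 6 above all vehicle rats, and at D1 0.17 (exact permutation p = 0.279, adjusted 0.419). At D180 Col4a1 was lower, while the Col1a1 means differed by 0.08 for the probe used and by 0.47 for its further probe. The D30 difference kept an adjusted p under 0.05 in 6 of 12 omissions of a single rat. Ratios were not fitted with a slide or scan date block. Within scan dates at D30 Col1a1 changed by 0.44 (1 DQ-12 array) and 0.00, and Col4a1 by -0.08 and -0.25.

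The other 2 ratios differed at D1. Col4a1 minus Col4a3 was higher by 0.94 in DQ-12 rats at D1, with all 6 above all vehicle rats (exact permutation p = 0.00216, adjusted 0.00974), and differed by -0.20 at D30 and 0.11 at D180 (exact permutation p = 0.199 and 0.652). Col1a1 minus Col3a1 was lower by 0.37 at D1 with 4 of 6 DQ-12 rats below all vehicle rats (change -0.37, exact permutation p = 0.00866, adjusted 0.026), and differed by -0.07 and -0.13 at D30 and D180 (exact permutation p = 0.565 and 0.864). Within the shared scan date at D1, against 1 vehicle array, Col4a1 changed by -0.05 and Col4a3 by -0.56. There Col1a1 changed by 0.13 and Col3a1 by 0.23. The 4 differences that passed also passed without normalization. With the mean of all probes of a gene, Col1a1 minus Col3a1 at D1 was -0.19 and did not pass (adjusted p = 0.164 over the 9 exact tests).

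**Figure D5:**
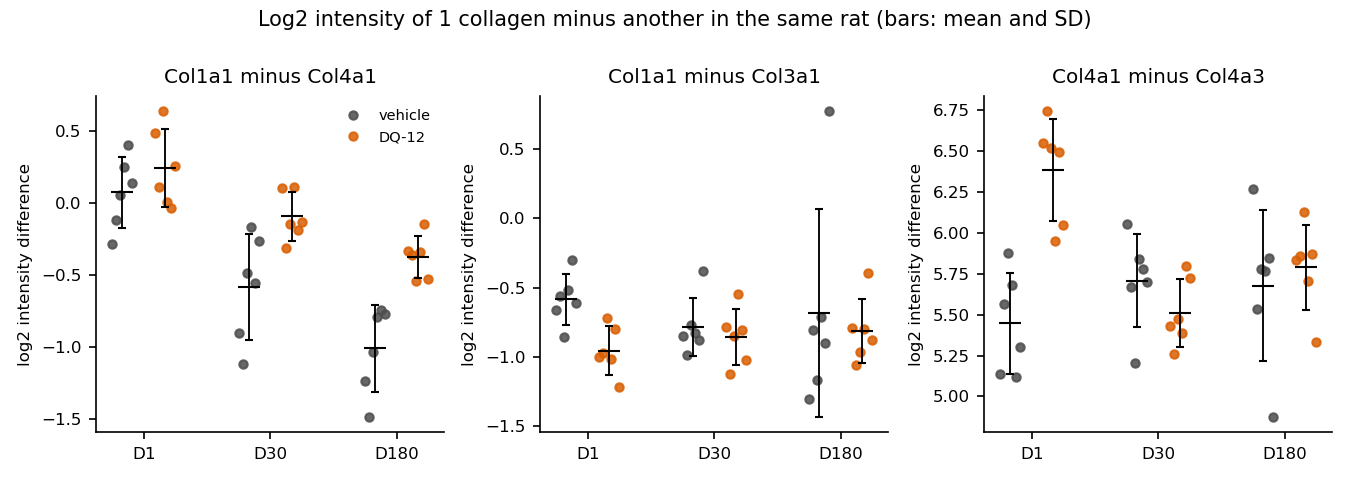
Difference of log2 intensities between pairs of collagen genes in the same rat (1 point per rat; bars show mean and SD, n = 6) for vehicle and DQ-12 at D1, D30 and D180. Col1a1 minus Col4a1 is higher in all 6 DQ-12 rats at D180, and Col4a1 minus Col4a3 in all 6 at D1.

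Whether the DQ-12 change differed between days was tested on the difference of the changes, which is built from separate vehicle and DQ-12 rats at each day. From D1 to D30, 3 of 43 collagens passed (2.21% of all genes). Col9a2 shifted by 1.44 (adjusted p = 0.000908 in limma), Col17a1 by 1.35 (adjusted p = 0.0064) and Col6a1 by -0.57 (adjusted p = 0.0268). From D1 to D180, 4 passed (4.65% of all genes): Col9a2 at 2.06 (adjusted p = 4.47e-06), Col6a1 at -0.86 (adjusted p = 0.000423), Col4a1 at -0.58 (adjusted p = 0.0146) and Col6a5 at -0.96 (adjusted p = 0.0319). From D30 to D180 none passed in limma (0.249% of all genes), and 6 had an unadjusted p under 0.05. The rise of Col9a2 from 1.10 to 1.71 between D30 and D180 is therefore not shown to be a difference between those days. Slide or scan date as a fixed block leaves 1 vehicle array at D1, and slide leaves 1 against 1 array at D180. Calls for shifts from D1 were therefore not counted with these blocks. With the slide block the D1 to D30 shifts were 1.54 for Col9a2, 1.56 for Col17a1 and -0.67 for Col6a1. From D1 to D180 they were 2.25 for Col9a2, -0.99 for Col6a1, -0.24 for Col4a1 and -0.54 for Col6a5. With the scan date block the D1 to D180 shifts of Col4a1 and Col6a5 were -0.32 and -0.50, and that of Col9a2 was 2.16. The calls of Col6a1 from D1 to D30 and of Col6a5 from D1 to D180 were lost without any 1 of 5 and 8 arrays (adjusted p up to 0.0569 and 0.0606).

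Vehicle rats, which aged from 13 weeks by the length of the study, gave the background level of each collagen over time. From D1 to D180, 9 of 43 collagens passed and all 9 were lower (20.9%), while 10.7% of all genes passed and 4.61% were lower. By class these were 4 of 11 fibrillar, 0 of 6 type IV and 5 of 26 other collagens (3 of the type IV genes at an unadjusted p under 0.05 in limma), with median changes of -0.64, -0.13 and -0.36, and all 11 fibrillar changes were negative. The vehicle median of Col1a1 went from 13.49 at D1 to 12.99 at D30 and 12.00 at D180, that of Col1a2 from 14.81 to 14.23 and 13.57, and that of Col3a1 from 13.94 to 13.72 and 12.94. The ranges at D1 and D180 did not overlap for any of the 3, with D1 minima of 13.08, 14.43 and 13.65 and D180 maxima of 12.64, 13.85 and 13.54. Col1a1 fell by 1.29 (SE 0.190, adjusted p = 6.31e-05 in limma), Col1a2 fell by 1.22 (SE 0.182, adjusted p = 6.83e-05) and Col3a1 fell by 1.19 (SE 0.209, adjusted p = 0.00039), the 3 collagens with at least a 2-fold decrease, which 0.986% of all genes showed.

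Lower vehicle levels at D180 than at D1 were also measured for Col6a1 (-0.67, adjusted p = 8.58e-05 in limma), Col6a2 (-0.72, adjusted p = 0.00423) and Col5a2 (-0.53, adjusted p = 0.00539), and Col6a3, Col6a6 and Col13a1 made up the rest of the 9. From D30 to D180, 12 collagens passed (11.7% of all genes), 10 lower and 2 higher (6.11% and 5.56% of all genes), and from D1 to D30 3 passed (6.59% of all genes), all lower (3.42%). The 2 higher ones, Col10a1 and Col9a1, are both known from cartilage and none of the 6 vehicle arrays at D30 measured either of them well above background. At D180 only 2 of the 6 vehicle arrays did so for Col10a1 and 3 for Col9a1. No fold is therefore given for either rise. The same genes made up 2 of the 3 lower ones at D30, where Col9a1 was at least 1.07-fold lower than at D1 (adjusted p = 0.00269 in limma, measured means 4.47 and 2.82) and no fold is given for Col10a1. A further Col9a1 probe went the other way, from 2.31 at D1 to 3.47 at D30. With the mean of all probes both of these calls were lost (-0.24 for Col9a1 and -0.92 for Col10a1, adjusted p = 0.65 and 0.0717 in limma). The third lower gene at D30 was Col5a3, with a change of -0.39. Vehicle arrays of different days shared neither slide nor scan date, so that day and batch cannot be told apart in these comparisons.

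Genes that make and modify collagen were described by lists, to be read against the 7.69%, 2.78% and 7.94% of all genes higher and the 8.76%, 1.27% and 9.11% lower at D1, D30 and D180. Of 17 genes for folding and modification, 3 were higher at D1, namely P4hb, a subunit of prolyl 4-hydroxylase (0.63), Ppib, a prolyl isomerase (0.51), and P3h1, a prolyl 3-hydroxylase (0.33). At D30 1 was lower, and at D180 1 was higher and 3 were lower. Those with the smallest p at D180 were P3h2, which hydroxylates type IV collagen (-0.71, adjusted p = 0.000135 in limma), Colgalt2, which glycosylates hydroxylysine (-0.89, adjusted p = 0.00283), and P4hb (0.39, adjusted p = 0.0406). Of 12 genes for procollagen processing and cross-linking none passed at D1 or D30 in limma (3 and 2 at an unadjusted p under 0.05), and Loxl4, a lysyl oxidase relative, was lower at D180 (-0.77, adjusted p = 0.000379). Its list neighbors Loxl3 and Adamts2 had changes of -0.82 and -0.34 that did not pass (adjusted p = 0.0656 and 0.139 in limma). Lox itself had a change of 0.25 at D180 (adjusted p = 0.446).

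Proteoglycans and receptors were counted beside 7.69% of all genes higher at D1 and 8.76%, 1.27% and 9.11% lower at D1, D30 and D180. Among 8 small proteoglycans that bind collagen fibrils, 1 was higher and 3 were lower at D1, 1 was lower at D30 and 3 were lower at D180. Those lower at D180 were Prelp (-0.69, adjusted p = 2.52e-06 in limma), Omd (-0.92, adjusted p = 0.000847) and Fmod (-0.40, adjusted p = 0.025). Of 10 collagen receptors, 1 was lower at D1, none passed at D30 in limma (0 at an unadjusted p under 0.05) and 3 were lower at D180. These were Ddr2, the discoidin receptor of fibrillar collagen (-0.70, adjusted p = 7.95e-07), Itgb1, the shared β chain of collagen-binding integrins (-0.33, adjusted p = 0.000769), and Mrc2, an uptake receptor for collagen (-0.48, adjusted p = 0.00272).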

How the data were processed

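Total RNA of each lobe was labeled with Cy3 and hybridized to a 1-color Agilent rat array, and the authors deposited the scanner output with background-corrected intensity per spot (Agilent Feature Extraction 12.0.1.1). They also deposited a series table of log2 values, which is centered per probe on its median over arrays and served as an alternative; its normalization is not given in the sources used here. The study's methods name a batch correction without its variable. Here, spots of a probe were averaged, log2 intensities were quantile normalized, and the brightest probe stood for a gene. A single limma 3.58.1 model (R 4.3.3) of the 6 group means over 36 arrays, with no block, gave changes, SE and adjusted p. Exact 2-sided permutation tests covered all splits of 6 against 6 rats. Outlier spots were left out, and none was saturated. The number of arrays limits the precision. The probe sequences come from the deposited files and the promoters from RefSeq GRCr8. The named genes are all collagens that passed at any day, 14 collagens taken whatever their result, and in vehicle and between-day comparisons the 6 with the smallest adjusted p. The members, classes and lists were chosen with earlier results of these data known. The fit was tested on simulated data with independent arrays and no slide or scan date effect, so that batch was not covered. Alternatives covered background, scaling, filters, probes, slide, scan date, replicate number and omission of each array.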

Additional observations from a re-analysis of the deposited data

Results flagged for a closer look

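Of 186 sets of 6 values tested for a rat far from the others, 11 held one, while chance gives about 1 in 20. High values were found for Col14a1 (7.42) and Col4a2 (10.2) on DQ-12 D30 replicate 5, for Col4a3 (7.08) on DQ-12 D180 replicate 6, for Col5a2 (11.4) on DQ-12 D180 replicate 3, for Col4a6 (11.6) on vehicle D30 replicate 4, and for Col6a4 (10.2) on vehicle D180 replicate 5, the rat with high skeletal muscle markers. On DQ-12 D1 replicate 2, Col17a1 (6.66) and Col4a6 (10.3) were low and Col5a2 (12.4) was high. Col1a1 minus Col3a1 was 0.772 on vehicle D180 replicate 6 and -0.382 on vehicle D30 replicate 6, both above the other rats of their group.

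The DQ-12 change differed between days for 5 collagens in limma. From D1 to D30 it shifted by 1.44 for Col9a2, 1.35 for Col17a1 and -0.57 for Col6a1. From D1 to D180 it shifted by 2.06 for Col9a2, -0.86 for Col6a1, -0.58 for Col4a1 and -0.96 for Col6a5. The D1 arrays were unbalanced over scan dates. Scan date as a fixed block leaves 1 vehicle array at D1, so that calls were not counted with it. The part of the scan date in these shifts was not tested.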

How the results depend on the processing

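The rise of Col9a2 at D30 (0.99 to 1.14) passed under all 13 alternatives. At D180 it was 1.58 to 1.86 under the 13 and passed wherever each group kept more than 1 array. The lower vehicle levels of Col1a1, Col1a2 and Col3a1 at D180 than at D1 passed under the 11 that could be fitted. Counts of collagens that passed moved by more than 1.5 times under the following settings. With normexp background correction 5 passed at D30, with 0 at 2-fold, and 1 at 2-fold at D180. With 75th percentile scaling 10 passed at D1, 3 of them at 2-fold, 6 in vehicle from D1 to D30, and 5 changed differently from D1 to D30. With the deposited log2 values 10 passed at D1, 2 at 2-fold, and 6 in vehicle from D1 to D30. With genes well above background 5 passed at D30 and 1 in vehicle from D1 to D30. With the mean of all probes of a gene 3 passed at D1 and 1 at D30, and Col1a1 minus Col3a1 at D1 weakened to -0.19. Slide as a fixed block leaves 1 vehicle array at D1 and 1 against 1 array at D180, so that calls at these days were not counted. With it the Col16a1 change at D180 was -0.051. With scan date as a fixed block 1 passed at D30, and calls that involve D1, where it leaves 1 vehicle array, were not counted. With scan date as a random block 5 passed in vehicle from D30 to D180 and 2 changes differed from D1 to D180. With each day fitted alone 7 passed at D180, 1 at 2-fold, and with trended robust moderation 5 at D30. Class medians moved by more than their spread between rats in 17 cases, at most from -0.64 to -0.35 for fibrillar collagens in vehicle from D1 to D180 with normexp, and with slide as a fixed block that of fibrillar collagens at D1 went from -0.13 to 0.08. The cause of these shifts was not tested. Fixed blocks could not be fitted for vehicle over time.

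Leaving out 1 array gave 5 to 8 at D1 (0 to 1 at 2-fold), 3 to 8 at D30 (1 to 2), 11 to 16 at D180 (1 to 2), 2 to 4, 10 to 12 and 8 to 11 in vehicle (D1 to D30, D30 to D180, D1 to D180) and 2 to 4, 0 to 0 and 3 to 5 between days. The 2-fold count at D1 was 1 without vehicle D1 replicate 4 or DQ-12 D1 replicate 1 or 4, at D30 it was 2 without vehicle D30 replicate 3 or DQ-12 D30 replicate 5, and at D180 it was 1 without DQ-12 D180 replicate 1 or 5. Col1a1 minus Col4a1 ranged from 0.09 to 0.24, 0.38 to 0.57 and 0.54 to 0.69 at D1, D30 and D180, Col1a1 minus Col3a1 from -0.42 to -0.31, -0.13 to 0.01 and -0.25 to 0.16, and Col4a1 minus Col4a3 from 0.87 to 1.03, -0.30 to -0.13 and -0.05 to 0.23. With the replicate block 6, 4 and 16 passed at D1, D30 and D180, and same-numbered rats deviated together with r of only -0.134 to 0.225, so the numbers did not pair them. The 75th percentile scaling moved the median of all genes to -0.17 at D1 and -0.11 at D180, and in vehicle to -0.17 from D1 to D30 and -0.12 from D1 to D180, where the share of higher calls over all genes went from 48.1% to 9.75% and from 57.1% to 35.6% (D30 to D180: 47.6% to 67.2%).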
